A study of Mus musculus with 2 samples.

Results

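The DNA replication machinery was followed as 47 genes whose products license replication origins, unwind DNA, copy it, and make the nucleotides for it. A probe set, the group of short probes that reports 1 transcript on these arrays, was taken for a gene if the platform annotation named that gene alone. This gave 104 probe sets for the 47 genes, with no gene left without one, of 18193 genes named on the arrays. The samples were E14 mouse embryonic stem cells, an established cell line, infected for 24 h with lentivirus for a short hairpin RNA (shRNA) that targets Mll2, a histone methyltransferase, or for a control shRNA. The labels give the same protocol for both, with puromycin selection for 5 days afterwards. RNA was hybridised to 1 array for each shRNA, which leaves every difference here without replicates, tests or p-values. The labels do not say how many hairpins were used, nor which of the genes once called Mll2 was targeted. Kmt2d, one of them, gave 335 signal units with Mll2 shRNA and 736 with control shRNA (log2 ratio -1.14), and Kmt2b, the other, gave 852 and 901 (-0.08). Pairs of signals are given in that order throughout.

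In each cell cycle, the origin recognition complex (ORC), Cdc6 and Cdt1 load the MCM helicase onto DNA before S phase begins. The kinase Cdc7-Dbf4 and the factors Mcm10, Cdc45 and GINS then turn the helicase on, after which primase and the replicative polymerases copy both strands behind the sliding clamp PCNA. Many of these genes are transcribed at the entry to S phase under E2F transcription factors. Embryonic stem cells divide rapidly and spend much of their cycle in S phase.

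All 47 genes were measured on both arrays, and as a group they sat slightly lower in the Mll2 shRNA array. Of the 47 log2 ratios (Mll2 shRNA over control), 36 were below 0 and 11 above, with a median of -0.147. Below 0 lay 76.6% of the members, against 46.5% of all 11805 measured genes, whose median was 0.026. No member was 2-fold apart in either direction, while 1.47% of measured genes passed 2-fold upward and 0.983% downward. At 1.5-fold, 1 member was lower and 0 were higher, against 4.68% of measured genes lower and 7.4% higher. The 1 member was Tyms. Its probe sets that name it alone lie near or below the floor given at the end of this paragraph, and those measured disagree. A bright probe set shared with its pseudogene, not used for this count, gave 0.07. A gene was represented by its probe set with the highest mean, and values under a floor of 6.02 on the log2 scale (the 50th percentile of all values, a signal of 64.7) were raised to it.

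The members are bright on these arrays: 42 of them had a mean log2 value of at least 10. Among all 4119 measured genes at or above that level, 51.9% had a ratio below 0 and the median was -0.013, and among the 42 members the count was 34 (81.0%) and the median -0.148. Large ratios are rarer at this level than over all measured genes. Of the 4119, 113 were at least 1.5-fold higher and 60 lower, and 21 and 11 passed 2-fold. The absence of members past 2-fold is to be read beside these counts. Single members were read against the spread at a gene's level: the median absolute deviation, scaled to match an SD, among the 500 genes closest to it in mean log2 signal. It holds real differences as well as noise. The deviation is taken around the median of those genes, while member ratios were counted from 0. A shift shared by genes of a level therefore counts towards a member's ratio. Only 11 of 47 members (23.4%) had a ratio larger in size than the spread at their level, against 33.5% of all measured genes. These were Orc1, Mcm2, Mcm4, Gins4, Pola2, Pcna, Rfc5, Rpa1, Fen1 and Tyms below 0, and Tk1 above. After loess on mean level Rfc5 was at -0.15 and Rpa1 at -0.16, smaller than their spreads as deposited (0.20 and 0.19). Because these are bulk RNA samples, fewer cells in S phase and less RNA of these genes per cell cannot be told apart. With 1 array per shRNA, neither can be told apart from a difference between the cultures or arrays themselves.

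**Figure D1:**
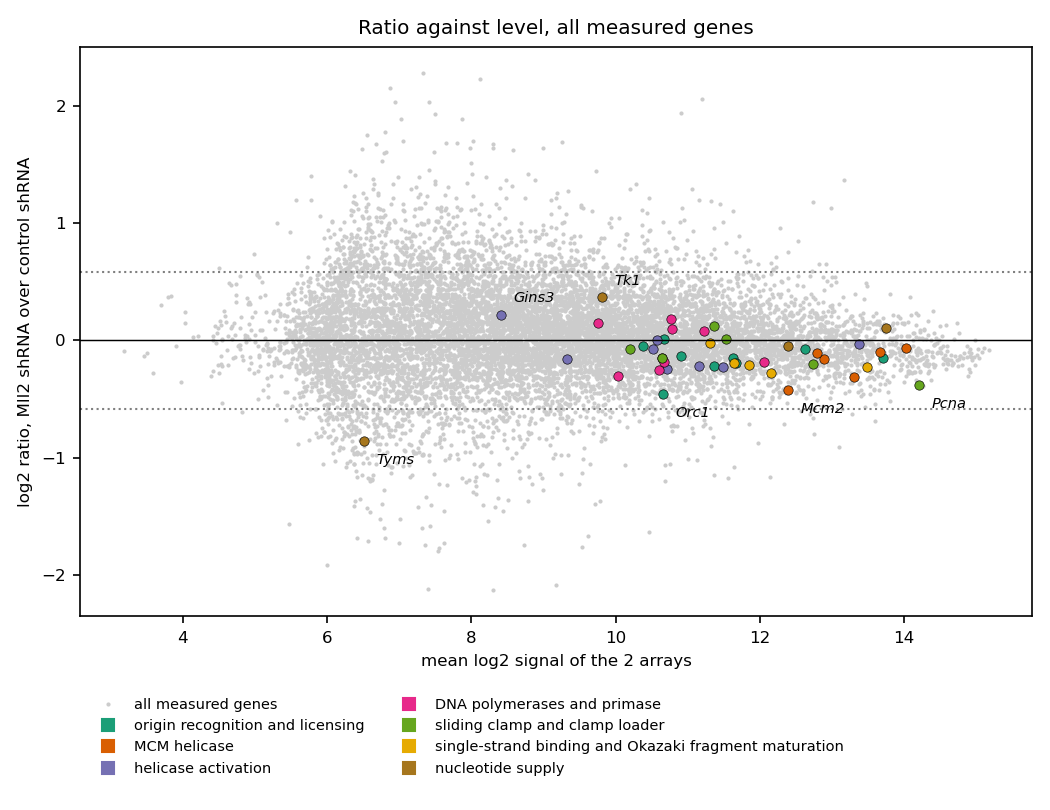
Log2 ratio (Mll2 shRNA over control shRNA, vertical) against the mean log2 signal of the 2 arrays (horizontal) for 11805 measured genes in grey and the 47 replication genes coloured by role; dotted lines mark 1.5-fold. The coloured points lie mostly just below 0, 42 of them at a mean of at least 10, and only Tyms lies outside the dotted lines.

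The size of the shift and the tally of signs depended on how the arrays were scaled, while the median stayed below 0 under each scaling run. Scaling on the 18 bacterial spike-in probe sets, whose mean difference between the arrays was -0.12, moved the median of all measured genes from 0.026 to 0.139 and that of the members from -0.147 to -0.030. Under that scaling 26 members were below 0 (55.3%) and 21 above, while 32.0% of all measured genes were below 0. Spike-in scaling adds the same constant to every gene, so the place of the members relative to other genes is fixed by construction and is no separate evidence. Against the all-gene median, 39 of 47 members lay lower as deposited and 36 after loess or quantile normalization. The members' median minus the all-gene median was -0.174 as deposited, -0.152 after loess and -0.144 after quantile normalization.

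Sequence near the start sites was set beside these values, since E2F is the best known regulator of these genes. The E2F motif was searched as TTTCCCGC, TTTCGCGC, TTTGCCGC and TTTGGCGC, on both strands, in RefSeq windows from 250 bases before to 50 after each start (build GRCm38.p6). Matches may overlap each other. Of the 39 members with such a window, 15 (38.5%) held a match, against 2.60% of all 27025 genes with a window and 4.94% of the 9559 measured genes with one. The members with a match had a median log2 ratio of -0.11, with 12 of 15 below 0, and the 24 without one had a median of -0.18, with 19 below 0. A match is a description of the letters, not a shown binding site, and the lack of an exact match does not show that E2F is absent. Whether E2F has a part in these ratios was not tested. The stretches printed here come from 5 members, of the licensing, MCM helicase and helicase activation roles, whose match lies wholly before the start, with the match in capitals; Orc1 is shown for the lowest ratio among members other than Tyms, and Gins3 is given as a member with a higher signal in the Mll2 shRNA array.
Orc1 (chr4:108579394-108579453, + strand, log2 ratio -0.46): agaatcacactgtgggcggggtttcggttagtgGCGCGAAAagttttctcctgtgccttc
Cdc6 (chr11:98907987-98908046, + strand, -0.13): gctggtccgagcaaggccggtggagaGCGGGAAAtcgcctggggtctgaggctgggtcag
Mcm5 (chr8:75109332-75109391, + strand, -0.10): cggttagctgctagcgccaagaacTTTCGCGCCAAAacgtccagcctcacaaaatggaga
Mcm6 (chr1:128359745-128359835, - strand, -0.11): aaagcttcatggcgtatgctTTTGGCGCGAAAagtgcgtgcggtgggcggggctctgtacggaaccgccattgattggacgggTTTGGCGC
Gins3 (chr8:95633492-95633551, + strand, 0.22): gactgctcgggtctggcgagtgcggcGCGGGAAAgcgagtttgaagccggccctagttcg
In Mcm5 and in the left part of Mcm6 a forward and a reverse match overlap, which makes each run of capitals longer than 1 motif. The Mcm6 stretch holds 3 matches in all.

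Origin recognition and licensing genes were lower in 8 of 9 cases, with a median of -0.149. Orc1, the largest ORC subunit and an ATPase, had signals of 1373 and 1889 (log2 values 10.42 and 10.88, log2 ratio -0.46). This was beyond the spread of 0.26 at its level, and 19 of the 500 genes closest in level lay further down. The second Orc1 probe set gave -0.20, with signals of 407 and 467, so both lay on the same side. Orc2, another ORC subunit, had 2446 and 2858 (-0.22), with -0.16 and 0.18 in its further probe sets. Orc6, the smallest subunit, had 3042 and 3476 (-0.19) and Orc5, an ATP-binding subunit, 2995 and 3324 (-0.15). These 3 ratios were within the spread at their level, and the Orc2 probe sets were not all on the same side. Orc3 was nearly equal at 1308 and 1356 (-0.05), although its dimmest probe set, at 71.0 and 106, gave -0.58. Orc4 was the only licensing gene above 0, at 1641 and 1632 (0.01), and its 4 probe sets ran from -0.12 to 0.09.

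The loading factors behaved like the ORC subunits. Cdt1, which brings the MCM ring to ORC, had 12637 and 14009 (-0.15), and its second bright probe set, at 3750 and 4381, gave -0.22. Cdc6, the ATPase that completes the loading platform, had 1837 and 2011 (-0.13). Gmnn, the gene for geminin, which binds Cdt1 and blocks a further round of licensing, had 6147 and 6455 (-0.07). None of the 3 exceeded the spread at its level, which was 0.28 for Cdc6, 0.20 for Gmnn and 0.17 for Cdt1.

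**Figure D2:**
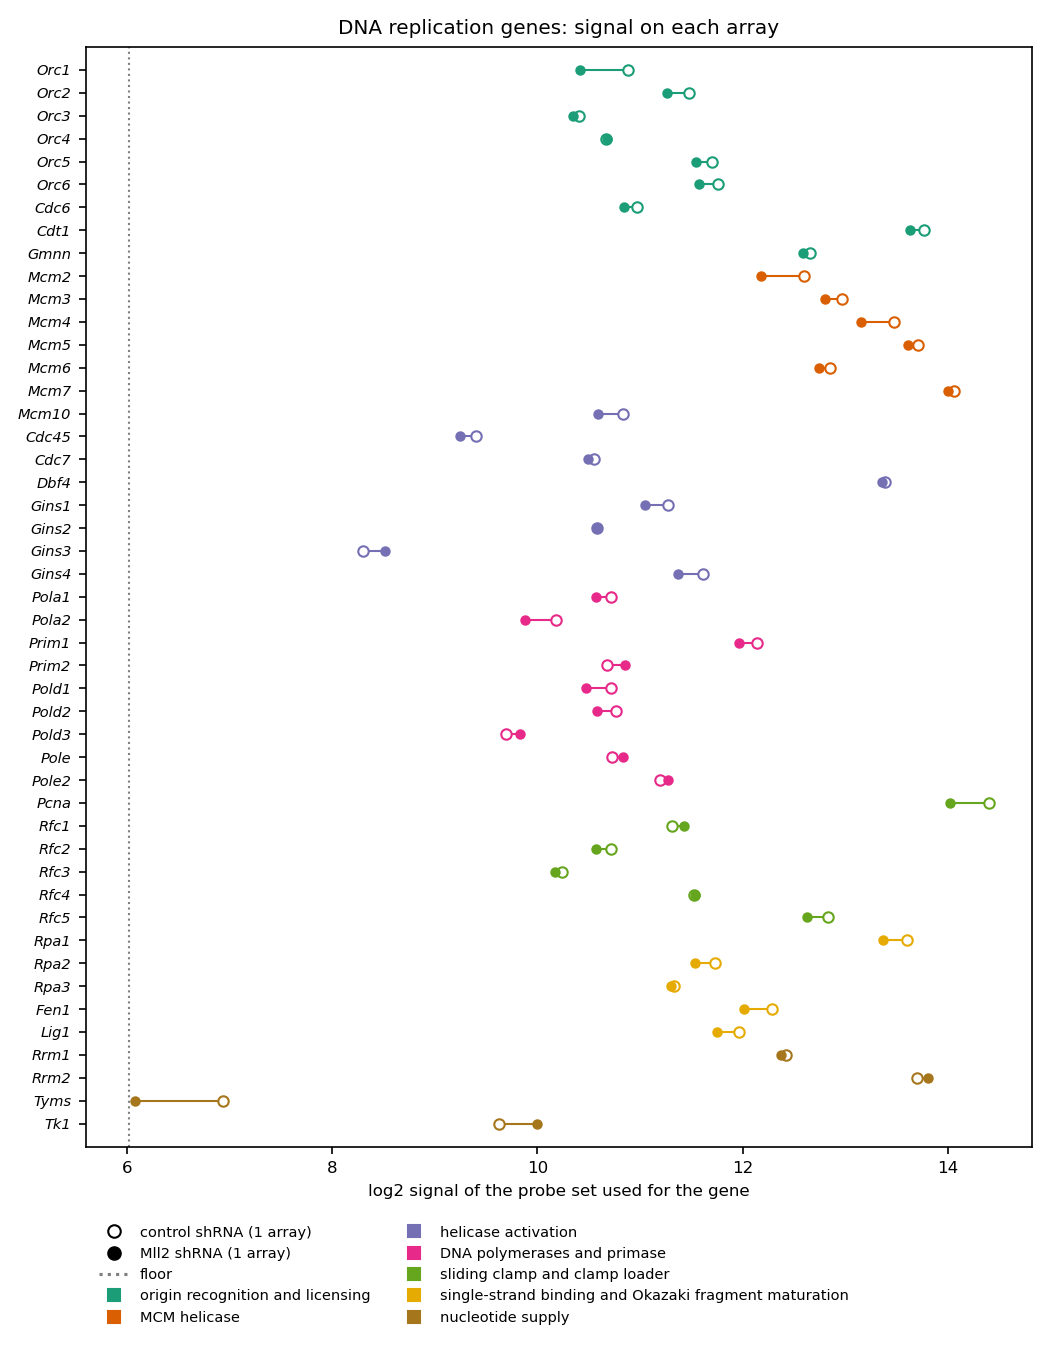
Log2 signal of the probe set used for each of the 47 genes on the control shRNA array (open circles) and the Mll2 shRNA array (filled circles), ordered and coloured by role, with the floor dotted. The filled circle lies left of the open one in 36 genes, most widely in Tyms, Orc1 and Mcm2, and right of it in 11, most widely in Tk1.

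All 6 genes of the MCM helicase ring, the motor that unwinds DNA at the fork, had ratios below 0, with a median of -0.135. Not all were low for their level. Of the 500 genes closest in level, 296 lay further down than Mcm7, 224 than Mcm5 and 202 than Mcm6. For Mcm3 and Mcm4 these counts were 135 and 48. After loess on mean level the ring median was -0.082 and Mcm7 was at 0.03. Mcm2 had the lowest ratio, with 4642 and 6212 (log2 values 12.18 and 12.60, log2 ratio -0.42), and its second probe set gave -0.36 at 3325 and 4275. The spread at its level was 0.20, and 21 of its 500 neighbours in level lay further down. Mcm3 had 7154 and 8018 in the probe set used (-0.16), but its 5 probe sets were all below 0 and averaged -0.40 ± 0.23 (SD over 5 probe sets). The lowest of these, -0.76, came from the dimmest, at 114 and 194. Mcm5 had 12469 and 13356 (-0.10), with -0.53 at 2059 and 2972 and -0.05 at 306 and 316 in its other probe sets. Both genes thus had at least 1 probe set with a clearly larger difference than the one that represents them.

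Other ring subunits had probe sets on both sides of 0. Mcm4 had 9105 and 11327 (-0.31) in the probe set used and 10861 and 8213 (0.40) in the other, so its direction is not settled. Mcm6 had 6848 and 7367 (-0.11) in the probe set used and 7283 and 6331 (0.20) in the other. Mcm7 had 16436 and 17118 (-0.06), and its 4 probe sets ran from -0.18 to 0.03. In Mcm4, Mcm6 and Mcm7 the probe set with the positive ratio carries the suffix _x_at, which marks probes that can also match unrelated transcripts. Without any probe sets of suffix _x_at, _s_at or _a_at, 5 of the 6 genes could be followed, all were below 0, and their median was -0.31. That choice removes the positive probe sets just named, and Mcm7 altogether. The signs that remain were therefore fixed by it and are no separate evidence.

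Across the whole machinery, ratios from _x_at probe sets tended to exceed those of plain _at probe sets of the same gene. In the 8 members with both kinds above the floor on both arrays, the _x_at ratio was the higher in 6, with a median difference of 0.24. The differences were widest for Rfc2 (0.77) and Mcm4 (0.72), and reversed for Pold3 (-0.31) and Pold1 (-0.02). Over all 659 genes with both kinds, the _x_at ratio was the higher in 53.6% and the median difference was 0.04. This comparison was chosen after the values were seen, and what drives the difference in these members was not tested.

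**Figure D3:**
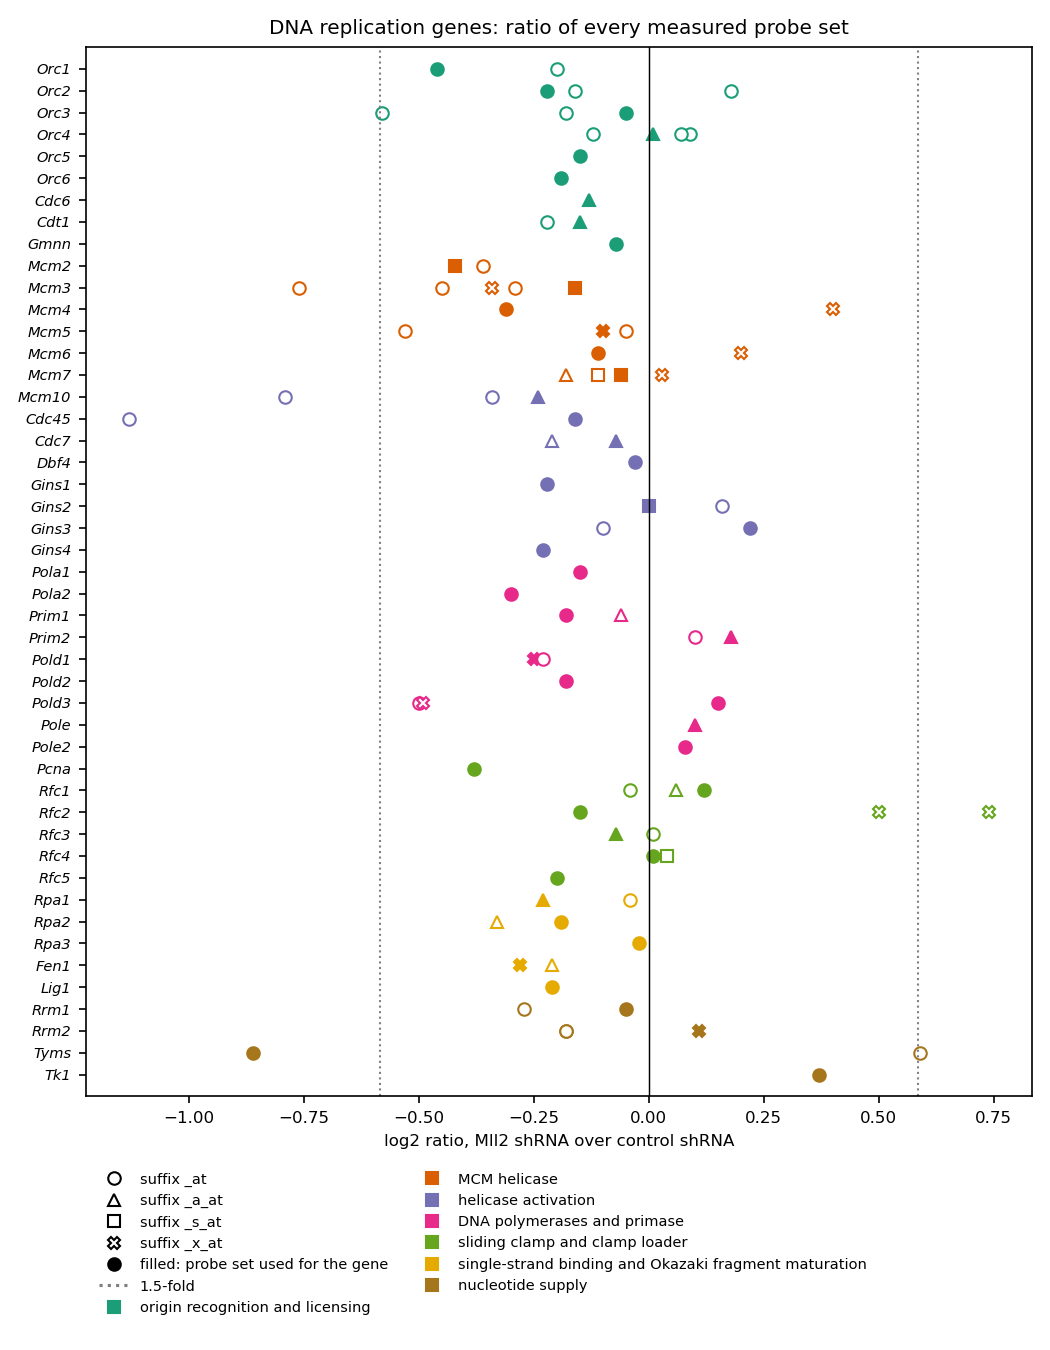
Log2 ratio (Mll2 shRNA over control shRNA) of the member probe sets above the floor on at least 1 array, by gene; filled symbols are the probe set used, shapes give the suffix, dotted lines mark 1.5-fold, and the ratios of the hollow outer points of Cdc45 (-1.13) and Tyms (0.59) and of Mcm10 at -0.34 are lower bounds in size. Mcm2 and Mcm3 lie wholly left of 0, while Mcm4, Rfc2 and Tyms have points far apart on both sides.

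Genes that turn the loaded helicase on had a median of -0.111, with 6 of 8 below 0. Mcm10, which is needed to start unwinding, had 1544 and 1826 (-0.24, spread 0.26), and its dim probe sets gave -0.79 at 67.9 and 118 and, with the Mll2 shRNA value under the floor, -0.34 or lower. Cdc45, which rides with the helicase, had 607 and 677 (-0.16), and a second probe set with a signal of 141 in the control was under the floor in the Mll2 shRNA array, a ratio of -1.13 or lower. Dim probe sets of both genes thus gave larger differences than the ones used, at levels where ratios scatter more. The kinase gene Cdc7 had 1436 and 1502 (-0.07), with -0.21 in its second probe set, and Dbf4, its activating subunit, had 10498 and 10710 (-0.03).

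GINS, a complex that joins Cdc45 on the helicase, had subunits on both sides. Gins4 had 2647 and 3116 (-0.23, just beyond the spread at its level), and Gins1 had 2121 and 2473 (-0.22). Gins2 was equal at 1532 and 1531 (0.00), with 0.16 in its second probe set. Gins3 was higher at 368 and 315 (0.22, spread 0.36), but its second probe set gave -0.10. Within this complex, therefore, no shared direction was seen.

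Polymerase and primase genes had a median of -0.146, with 5 of 9 below 0. Polymerase alpha, which starts each new strand with primase, had lower signals in both subunits: Pola2 had 943 and 1162 (-0.30, spread 0.28) and Pola1, the catalytic subunit, 1520 and 1682 (-0.15). Polymerase delta, the lagging-strand enzyme, was lower in Pold1, its catalytic subunit, at 1420 and 1691 (-0.25, with -0.23 in a second probe set) and in Pold2 at 1535 and 1744 (-0.18). Pold3, a further delta subunit, was higher at 912 and 823 (0.15) in the probe set used but lower in both others (-0.49 and -0.50), so that its 3 probe sets averaged -0.28 ± 0.37 (SD). Polymerase epsilon, the leading-strand enzyme, was slightly higher in the subunits among the members. The catalytic Pole had 1826 and 1700 (0.10) and Pole2 had 2469 and 2343 (0.08). Its other subunits, from the further replication genes described below, had no common direction. Pole3 gave 0.20, with -0.11 and -0.14 in its further probe sets, and Pole4 gave -0.12, with 0.06 in its second. The primase subunits went apart: Prim1, the catalytic one, had 3994 and 4525 (-0.18, with -0.06 in a second probe set) and Prim2 had 1848 and 1635 (0.18, with 0.10). Except for Pola2, each of the 9 member ratios was within the spread at its level.

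Pcna, which encodes the sliding clamp that tethers polymerases to DNA, had a ratio beyond the spread at its level. Its signals were 16626 and 21690 (log2 values 14.02 and 14.40, log2 ratio -0.38). The spread there was 0.15, and 20 of its 500 neighbours in level lay further down. After loess on mean level the Pcna ratio was smaller, at -0.28, and after quantile normalization it was -0.29. Pcna has 1 probe set here, so no second one could be set beside it. The clamp loader, replication factor C, was closer to 0: Rfc5 had 6340 and 7297 (-0.20) and Rfc3 1151 and 1211 (-0.07), while Rfc4 had 2977 and 2958 (0.01) and the large subunit Rfc1 2760 and 2537 (0.12). Rfc2 had 1524 and 1688 (-0.15) in the probe set used, but 624 and 372 (0.74) and 311 and 220 (0.50) in its _x_at probe sets, so its direction depends on the probe set.

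Genes for single-strand binding and for joining Okazaki fragments were all below 0, 5 of 5, with a median of -0.214, the lowest of the 7 role groups as deposited. That rank depended on the probe sets used. With plain _at probe sets alone, 4 of the genes could be followed and their median was -0.11, against -0.31 for the MCM helicase. Fen1, the nuclease that trims the flaps of lagging-strand fragments, had 4124 and 5008 (-0.28, spread 0.21), with -0.21 in its second probe set. Lig1, the ligase that seals them, had 3441 and 3991 (-0.21, spread 0.23). Replication protein A, which coats single-stranded DNA, was lower in Rpa1 at 10570 and 12398 (-0.23), with only -0.04 in a second probe set, and in Rpa2 at 2977 and 3392 (-0.19), with -0.33. Rpa3, its smallest subunit, was nearly equal at 2527 and 2570 (-0.02).

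Nucleotide supply genes had no common direction: 2 of 4 were above 0 and the median was 0.032. Tk1, the thymidine kinase of the salvage pathway, was the highest of the 47 members, with 1026 and 793 (log2 ratio 0.37, spread 0.28), and 429 of its 500 neighbours in level had a lower value. Tk1 has 1 probe set. Rrm1, the large subunit of ribonucleotide reductase, had 5307 and 5487 (-0.05), with -0.27 in its second probe set. Rrm2, the small subunit, was higher in its _x_at probe set at 14357 and 13276 (0.11) but lower in both plain ones, at 7841 and 8888 and at 2080 and 2355 (-0.18 in each). Tyms, which makes thymidylate, had 67.7 and 123 in the probe set used (-0.86, spread 0.54), only just above the floor of 64.7 in the Mll2 shRNA array. Its other measured probe set went the opposite way, with 97.4 in the Mll2 shRNA array and a control value under the floor, 0.59 or higher. The 2 remaining Tyms probe sets were below the floor on both arrays, so the direction for Tyms is not settled by the probe sets that name it alone. A bright probe set shared with the pseudogene Tyms-ps had 2476 and 2355 (0.07).

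Probe sets of the same gene give the only repeat measurement here, and they share the same RNA and arrays. Of the 104 member probe sets, 89 were above the floor on both arrays, 3 on 1 array and 12 on neither. Of the 89, 65 had a ratio below 0 and the median was -0.15. Among 28 members with at least 2 such probe sets, all were below 0 in 14, all above 0 in 3 (Gins2, Prim2 and Rfc4), and on both sides in 11 (39.3%, against 45.6% of all 4713 genes with at least 2). The median SD of a member's ratios over its probe sets was 0.12, against 0.19 for all such genes. Those genes were not matched to the members in level, and large ratios are rarer among bright genes.

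Further genes of replication were also more often below 0, with a median closer to that of all genes. They were listed by function, but with earlier results of these data known. Of 44 genes, 41 were measured, 27 were below 0 (65.9%) and 14 above, and the median was -0.057. One passed 1.5-fold, Pold4, the smallest delta subunit, which was higher (log2 values 7.43 and 6.70, ratio 0.74). The lowest ratios were those of Wdhd1, which links polymerase alpha to the helicase (-0.42), Tipin, a fork protection factor (-0.36), Mcmbp, an MCM-binding protein (-0.33, with -0.28 and -0.36 in its further probe sets), and Tonsl (-0.33), and these 4 were picked after their values were seen.

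Mitosis genes, which act later in the cycle, did not lean below 0: 11 of 23 measured genes were below 0, 12 above, and the median was 0.021. At least 1.5-fold apart were Nuf2, a kinetochore gene (log2 values 10.44 and 9.0, ratio 1.44), Nusap1, a spindle gene (0.61, with -0.01 in its second probe set), and Aurka, a mitotic kinase (-0.73, with 0.62 in its second). The difference between the replication and mitosis lists was not tested. With 1 array per group it is a description of these arrays.

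**Figure D4:**
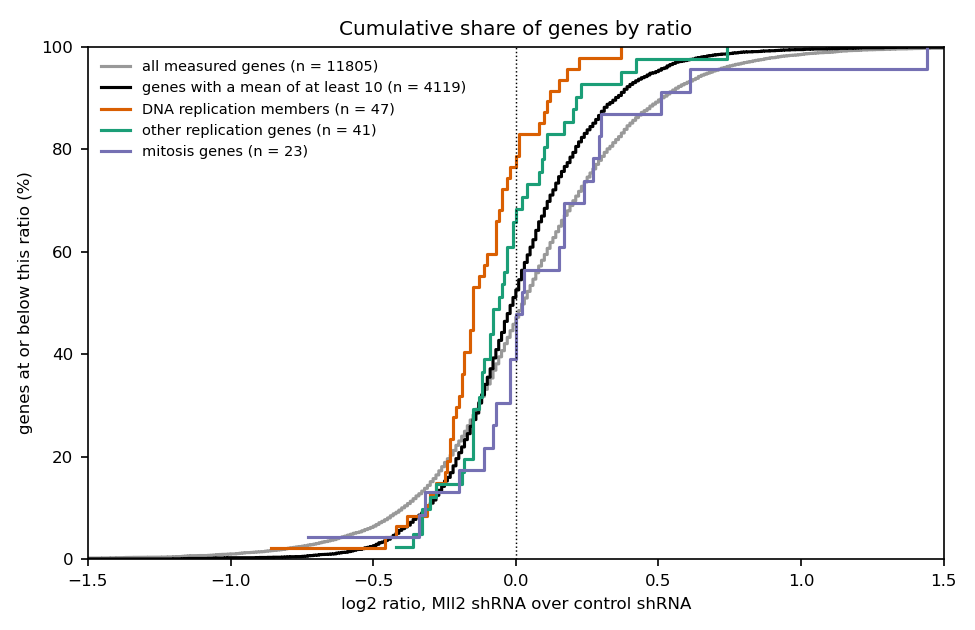
Cumulative share of genes (vertical, %) at or below each log2 ratio (Mll2 shRNA over control shRNA, horizontal) for the 47 members, 41 other replication genes, 23 mitosis genes, all 11805 measured genes and the 4119 with a mean of at least 10; genes beyond the ends of the axis are not drawn. Just below a ratio of 0 the members' curve stands highest, at 76.6%, and the mitosis curve is close to that of all genes.

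The state of the cultures was checked with marker lists. All 10 embryonic stem cell markers were above the floor on both arrays, with summed signals of 90004 and 94270. Single markers were apart in both directions, 9 of 10 beyond the spread at their level, from Lin28a (-0.90) to Klf4 (0.59). Of 10 fibroblast markers 6 were below the floor on both arrays, with a summed signal of 802 and 721, a highest log2 value of 8.23 and a lowest of 1.27. The 9 named markers of early differentiation summed to 1994 and 1845. Of these, 7 were measured, 5 with a ratio above 0 and 2 below, Cdx2 (-0.33) and Nes (-0.29, with -0.51 in its second probe set). At least 1.5-fold higher were 2, against 7.4% of all measured genes, and 0 were lower. These 2 were Sox1 (1.33) and Sox17, whose control value was under the floor (0.59 or higher). Eomes gave 0.18 and -0.92 in its 2 probe sets. The 3' minus 5' difference of the beta-actin control probe sets, a sign of RNA integrity, was 0.77 and 0.96, and that of Gapdh 0.06 and 0.05. The part of these differences in the replication values was not tested.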

How the data were processed

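Expression was measured in 2 samples, 1 array per group. The deposited table holds log2 values for 45101 probe sets, and the authors made them with MAS5, per the submitters' processing notes. Its version, not given in the sources used here, could not be checked. MAS5 subtracts mismatch signal and gives each probe set 1 value. The 2% trimmed mean of the signals was 500.0 on both arrays, as MAS5 scaling gives. The number of arrays limits the precision.

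After 64 control probe sets were set aside, the platform annotation gave 34945 probe sets 1 gene symbol and 932 several, and 9160 were not listed in it. Symbols were updated by Entrez number to RefSeq (GRCm38.p6). No gene coordinates are given for probe sets, since the table names no genome build. Floor, representative probe set and spread are explained with the results. The members, roles, lists and thresholds were chosen with earlier results of these data known. The rule for named genes asked for values of members at least 1.5-fold apart, of members with probe sets of opposite sign that are both at least 0.25 in size, and of up to 2 members per role nearest 0. Values of the other members, Kmt2d, Kmt2b and the markers were added after they were seen. From the further replication and mitosis lists, genes at least 1.5-fold apart were named. The steps were tested on simulated data with changes past 2-fold, larger than any member ratio here. That test does not show whether shifts of the members' size are recovered. Alternatives were median centring, quantile normalization, loess (span 0.3), spike-in scaling, floors at the 30th and 70th percentiles or none, the mean over a gene's probe sets, no suffix probe sets, and the floor added as a pseudocount. Python 3.11.15, numpy 2.4.6, pandas 2.3.3, statsmodels 0.14.6 and matplotlib 3.10.9 were used.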

Additional observations from a re-analysis of the deposited data

Results flagged for a closer look

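A probe set annotated to both Tyms and its pseudogene Tyms-ps was left out of every comparison because it names more than 1 gene. It was bright, with 2476 signal units under Mll2 shRNA and 2355 under control shRNA, and its log2 ratio was 0.07. It is given here because it carries a signal, above that of the control array, in data that no comparison used. No replicate shows whether a difference of this size repeats. The other probe set that names a member together with another gene, Orc4 with Acvr2a, had signals of 52.5 and 69.8.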

How the results depend on the processing

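No paired analysis was possible because each group has 1 array. The members' median stayed below 0 in every alternative run, from -0.169 without suffix probe sets to -0.030 with spike-in scaling. The count below 0 was 26 of 47 with spike-in scaling, when 21 were above and 32.0% of all measured genes were below 0. It was 35 or 36 in the other alternatives that kept all 47. No alternative put a member at 2-fold. The count at least 1.5-fold lower, 1 as deposited, was 0 for a floor at the 70th percentile, where Tyms is not measured, 0 with a pseudocount, 0 without Tyms (chosen after seeing the data) and 2 without suffix probe sets, when Mcm10 reached -0.79. Role medians changed sign with spike-in scaling for helicase activation (0.006) and the clamp and its loader (0.007), and for nucleotide supply with the mean over probe sets (-0.109) and without suffix probe sets (-0.114). Of the 47 members, 31 kept their sign in every alternative that measured them, 24 below 0 and 7 above. With the mean over probe sets the count at least 1.5-fold lower was again 1, but the gene was Cdc45 (-0.64, from -0.16) and no longer Tyms (-0.14, from -0.86), and Mcm4 (0.04), Mcm6 (0.05), Rfc2 (0.37), Pold3 (-0.28) and Rrm2 (-0.08) changed sign. Causes were not tested. Probe sets near the floor, as for Tyms, give the least certain ratios.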
